A study of Mus musculus with 12 samples.

Results

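The genes described here make cholesterol, sense it and move it through the liver: 18 enzymes of its synthesis, 4 regulators of that synthesis, 5 genes that degrade lipoprotein receptors or carry cholesterol inside the cell, and 6 that esterify or export it. They were chosen by name, 33 of the 24537 genes in the table, and all 33 were found and passed the filter on low values. In calorie-restricted (CR) mice Insig2, which encodes a protein that holds back sterol synthesis, was less than 0.5 times as abundant as in control mice at both time points, and Abcg5 and Abcg8, the 2 parts of the sterol exporter, were higher at both. The synthesis enzymes did not move as a block. Fdps, Pmvk, Acat2 and Nsdhl were higher in CR mice at day 25, and Hmgcs1, Sqle, Msmo1 and Hsd17b7 were lower at day 30. Of these calls only those of Fdps and Hsd17b7 held with any 1 mouse left out. Acat2 was also called higher at day 30, and no member passed for a difference in CR effect between the days.

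The data are liver RNA-Seq of 12 male C57Bl/6J mice, housed individually and 6 weeks old at the start of the diets. Control (Con) mice ate ad libitum, and CR mice were given 30% less food than that group ate, for 25 or 30 days, with 3 mice per diet and day. According to the methods of the study the CR mice received their food daily at a fixed hour. It was a fortified form of the feed that the Con mice ate, and its amount was adjusted weekly by body weight. The amount of food, its timing and its composition therefore cannot be told apart. The hour of liver collection is not given in the sources used here. Levels are FPKM, reads on a gene's exons relative to exon length and to the reads of the library, so they can be compared between genes per length. The 3 Con mice of day 30 are named Con10, Con11 and Con12 after their columns, which the labels tie to the group but not to a replicate number, and the other mice carry numbers 1 to 3 within their group.

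Cholesterol synthesis starts from acetyl-CoA, runs through mevalonate and the isoprenoids to squalene, and ends in a series of changes to the sterol rings. The membrane-bound transcription factor SREBP2, the product of Srebf2, drives most of these enzymes. Its escort SCAP carries it to the Golgi for release when membrane sterol is low, and the INSIG proteins retain the pair in the endoplasmic reticulum when sterol is high. Besides making cholesterol, the liver takes it up in lipoproteins, stores it as esters, loads it onto high-density lipoprotein through ABCA1 and sends it into bile through ABCG5 and ABCG8. In bulk tissue a lower value can come from fewer cells of a type or from less RNA per cell, and these cannot be told apart here.

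SREBP2 acts on DNA together with NF-Y and Sp1, whose sites are CCAAT and GC boxes. Windows from 250 bases before to 50 bases after the RefSeq start (assembly GRCm38.p6) were matched for 26 of the 33 genes. They were searched on both strands for TCACNCCAC, a sterol regulatory element core, for CCAAT, for the GC box GGGCGG and for the E-box CACGTG. The sterol regulatory element core was in 1 of the 26 members, Hmgcs1, and in 1.436% of 27025 genes with a window. Fdps, Fdft1, Sqle, Stard4, Npc1, Soat2 and Scarb1 had no matched window, so none of these motifs was looked for in them. CCAAT was in 23 members (88.46%, against 41.06% of genes), GGGCGG in 22 (84.62%, against 38.2%) and CACGTG in 6 (23.08%, against 8.093%). All members were expressed in these livers, whereas the 27025 genes were not limited to expressed ones. These shares therefore cannot tell a trait of sterol genes from one of expressed genes. A match describes letters and not a bound site. The 150 bases before the start are shown for 4 genes that differ in their values below, Hmgcs1 (lower at day 30), Pmvk (higher at day 25), Insig2 (lower at both days) and Abca1 (lower at day 30), 5′ to 3′ on the gene's strand with matches in capitals. For Insig2 the RefSeq start farthest upstream is shown, 4911 bases from the start of the transcript counted in the table.
Hmgcs1, chr13:119690201-119690350, + strand: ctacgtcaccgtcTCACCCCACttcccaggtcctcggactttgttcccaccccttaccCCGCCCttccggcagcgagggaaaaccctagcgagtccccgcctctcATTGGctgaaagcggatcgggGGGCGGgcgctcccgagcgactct
Pmvk, chr3:89454391-89454540, + strand: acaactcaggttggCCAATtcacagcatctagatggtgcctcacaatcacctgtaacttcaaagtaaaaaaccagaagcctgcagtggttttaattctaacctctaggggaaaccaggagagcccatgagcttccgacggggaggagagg
Insig2, chr1:121332590-121332739, - strand: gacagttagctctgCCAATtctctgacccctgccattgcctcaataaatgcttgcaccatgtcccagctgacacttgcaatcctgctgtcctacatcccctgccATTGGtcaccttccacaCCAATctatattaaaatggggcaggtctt
Abca1, chr4:53159896-53160045, - strand: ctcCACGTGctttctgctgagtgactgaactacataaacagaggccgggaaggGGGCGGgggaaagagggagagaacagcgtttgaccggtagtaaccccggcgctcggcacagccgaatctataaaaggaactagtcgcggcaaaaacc
The capitals in the Hmgcs1 stretch are the sterol regulatory element core, at positions -137 to -129 with the start site as base 0, then a GC box, a CCAAT box and another GC box. In the Pmvk stretch they are 1 CCAAT box. The Insig2 stretch has 3 CCAAT boxes and the Abca1 stretch an E-box and a GC box. The stretches before the other RefSeq starts of Insig2, 346 and 0 bases from that of the counted transcript, hold a GC box each and no CCAAT box. No matches overlapped one another in the windows of these 4 genes.

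At day 25, 8 of the 33 genes differed between CR and Con mice (24.2%), by limma on log2(FPKM + 1) with a Benjamini-Hochberg adjusted p under 0.1 over the 10593 genes tested, of which 14.9% passed. Among them 6 were higher in CR mice (18.2%, against 5.6% of all genes tested) and 2 lower (6.1%, against 9.34%). At day 30, 13 of the 33 differed (39.4%, against 24.7% of all genes), 4 higher (12.1%, against 8.33%) and 9 lower (27.3%, against 16.4%). With a 2-fold minimum added, which the study used, 2 members remained at day 25 (Fdps and Insig2, where 1.48% of all genes passed) and 2 at day 30 (Hmgcs1 and Insig2, against 2.21%). The median log2 fold change of the 33 was 0.16 at day 25 and -0.18 at day 30, beside -0.039 and -0.068 over all genes tested. Those medians were 0.024 without Con 3 at day 25 and -0.054 without Con12 at day 30, and 0.071 with quantile normalization at day 25 and -0.096 with median-ratio scaling at day 30. In 9 members at day 25 and 13 at day 30 the values of the 3 CR and 3 Con mice did not overlap, as in 28.2% and 36.4% of all genes tested. Both comparisons have 3 mice a group, for which the smallest p that exact permutation of the labels allows is 0.1.

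Median-ratio scaling gave 8 higher and 1 lower member at day 25, and turned the split over all genes from 593 higher and 989 lower to 929 and 799. At day 30 it gave 5 higher and 8 lower members, and the split over all genes went from 882 and 1737 to 1319 and 1238. Single mice weighed on both counts. At day 25, 4 members were called without Con 3 and 5 without CR 2, and at day 30, 8 without Con12 and 5 without CR 1. The calls that held in all 12 fits with 1 mouse left out were Fdps, Insig2, Abcg5 and Abcg8 at day 25 and Hsd17b7, Insig2, Abcg5 and Abcg8 at day 30.

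**Figure D1:**
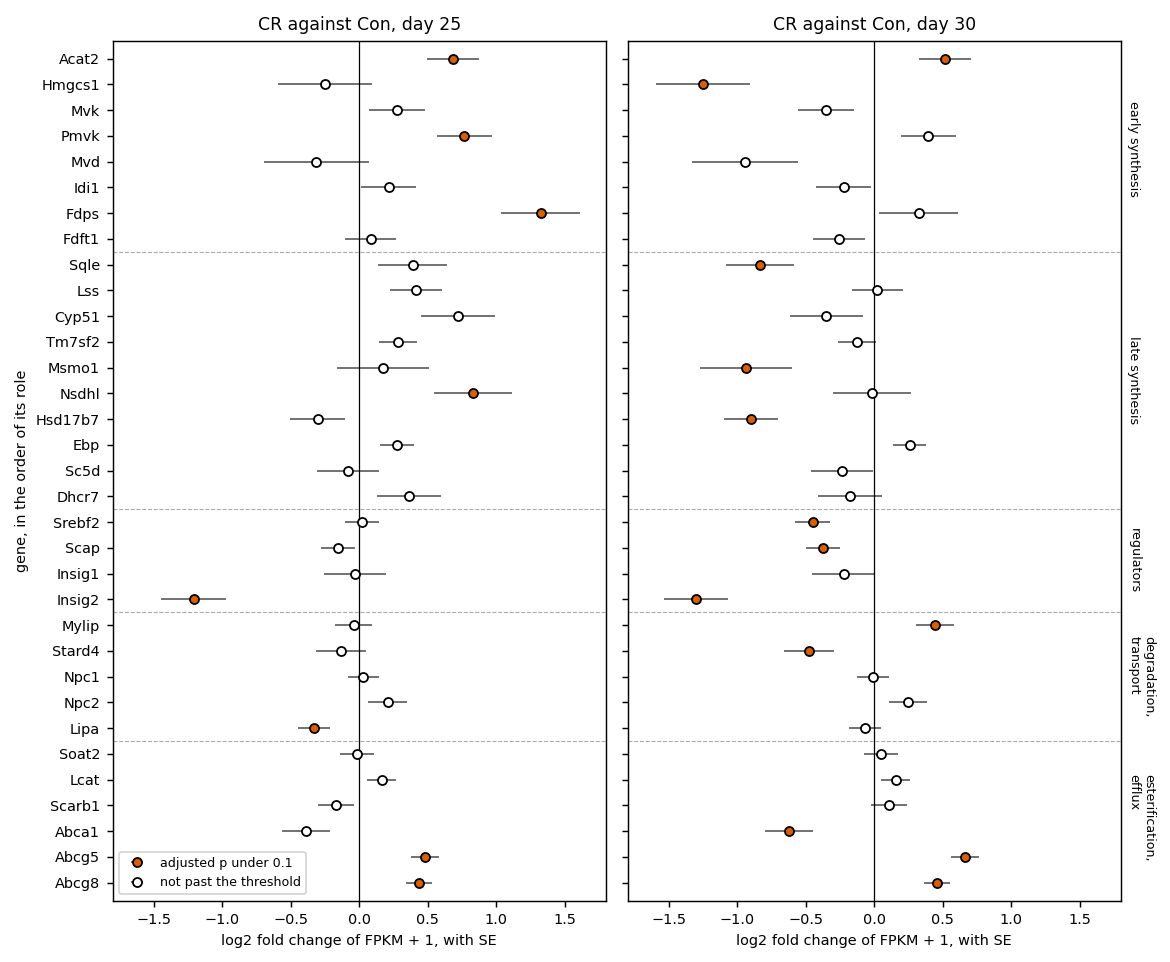
Log2 fold change of CR against Con mice for the 33 genes at day 25 (left) and day 30 (right), with the standard error of the fit, ordered by role. Filled points have an adjusted p under 0.1; the points of most synthesis genes lie to the right of 0 at day 25 and to the left at day 30, while Insig2, Abcg5 and Abcg8 keep their side.

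The early steps, from acetyl-CoA to squalene, are served by 8 genes. At day 25, 3 of them rose in CR mice and none fell (5.6% and 9.34% of all genes), and at day 30, 1 rose and 1 fell (8.33% and 16.4% of all genes). Fdps, farnesyl diphosphate synthase, makes the isoprenoid from which squalene, dolichol and ubiquinone side chains branch. Its FPKM at day 25 was 41.8, 30.4 and 18.7 in Con 1 to 3 and 79.3, 90.6 and 55.3 in CR 1 to 3. The lowest CR mouse was above the highest Con mouse, and the log2 fold change was 1.32 ± 0.29 (SE, n = 3 per group; adjusted p = 0.0148). At day 30 Fdps was 63.6, 38.5 and 76.9 in Con10 to Con12 and 66.3, 77.0 and 73.6 in CR mice, a log2 fold change of 0.33 ± 0.29 (adjusted p = 0.461) with overlapping groups. The CR mean was similar on the days (75.1 ± 18.02 and 72.3 ± 5.46, SD) and the Con mean went from 30.3 ± 11.5 to 59.7 ± 19.5. In the annotation 26.7% of the exon bases of Fdps are shared with Gm43738 on the same strand, and reads there could belong to either.

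Pmvk, phosphomevalonate kinase, measured 25.5, 22.6 and 18.6 FPKM in Con and 38.0, 45.7 and 32.1 in CR mice at day 25. All CR mice lay above all Con mice, with a log2 fold change of 0.77 ± 0.20 (adjusted p = 0.0334; 0.1135 without Con 3). At day 30 its values overlapped, 30.5, 22.5 and 42.2 in Con mice against 45.3, 38.1 and 39.2 in CR mice (0.40 ± 0.20, adjusted p = 0.195). Without Con12, the highest of the Con mice, that difference was 0.62 (adjusted p = 0.0495), and without Con11, the lowest, it was 0.18 (adjusted p = 0.569).

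Acat2, the cytosolic thiolase that joins 2 acetyl-CoA molecules, was the synthesis gene called higher at both days. Its FPKM at day 25 was 13.3, 12.1 and 8.9 in Con mice and 20.1, 21.9 and 15.1 in CR mice. Its day 30 values were 19.5, 12.8 and 20.5 in Con mice and 24.0, 27.8 and 23.8 in CR mice. The groups did not overlap on either day, and the log2 fold changes were 0.69 ± 0.19 (adjusted p = 0.0412) and 0.52 ± 0.19 (adjusted p = 0.0806). Both calls depended on single mice: the adjusted p rose to between 0.117 and 0.143 without Con 3, CR 1 or CR 2 of day 25, and to between 0.115 and 0.273 without Con11, CR 1, CR 2 or CR 3 of day 30. Without Con11 the day 30 difference was 0.32, and with no filter on low values its adjusted p was 0.1431.

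Hmgcs1, the cytosolic synthase whose product HMG-CoA feeds the mevalonate pathway and whose upstream stretch is printed above, went the other way. At day 25 its FPKM was 107, 56.2 and 45.9 in Con mice and 59.9, 64.1 and 42.6 in CR mice (log2 fold change -0.25 ± 0.34, adjusted p = 0.708). The values of day 30 were 125, 80.9 and 211 in Con10 to Con12 and 43.6, 54.7 and 64.8 in CR mice. There the lowest Con mouse was above the highest CR mouse, and Hmgcs1 fell by 1.25 ± 0.34 on the log2 scale (adjusted p = 0.0282). Without Con12 the change was -0.89 (adjusted p = 0.1) and without CR 1 it was -1.10 (adjusted p = 0.1095). An antisense gene, Gm48342, covers 12.1% of the exon bases of Hmgcs1, and the strand setting of the counting is not given in the sources used here.

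Mvd, which converts diphosphomevalonate to isopentenyl diphosphate, had the widest spread relative to its mean among the 3 Con mice of day 30 (coefficient of variation 71.7%). It measured 10.4, 3.9 and 20.3 FPKM there against 4.6, 3.9 and 5.1 in CR mice. The groups overlapped and the log2 difference of -0.94 ± 0.39 did not pass (adjusted p = 0.113). Without Con11, the low Con mouse, it was -1.498 (adjusted p = 0.00487), and without Con12 it was -0.44 (adjusted p = 0.375). At day 25 Mvd was 7.8, 7.0 and 4.7 in Con and 4.3, 6.4 and 4.4 in CR mice (-0.31 ± 0.39, adjusted p = 0.664). The remaining early genes, Mvk (mevalonate kinase), Fdft1 (squalene synthase) and Idi1 (isopentenyl diphosphate isomerase), passed at neither day. Their log2 fold changes ran from 0.082 to 0.28 at day 25 and from -0.35 to -0.22 at day 30. Idi1 was the least abundant member, between 0.187 and 1.58 FPKM, which is 9 to 102 reads per library.

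**Figure D2:**
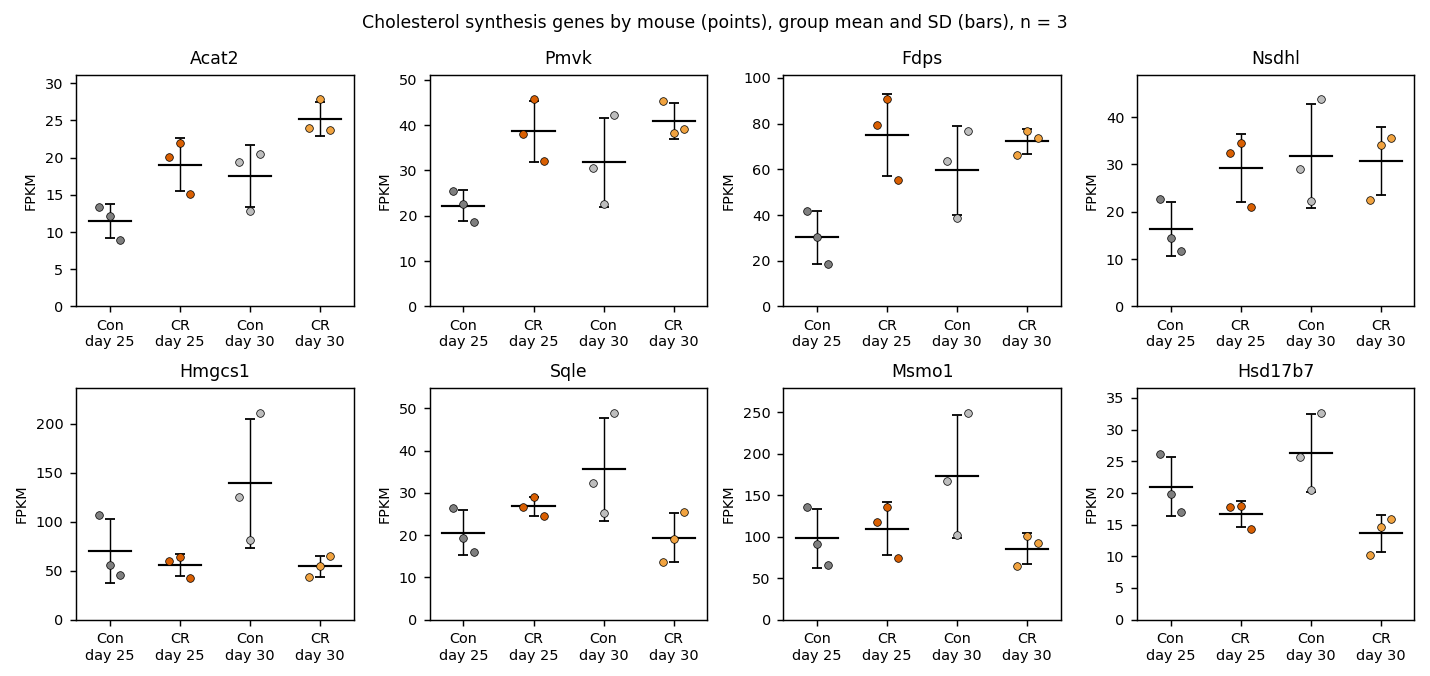
FPKM of 8 synthesis genes in each mouse (points), with the group mean and SD (bars), for Con and CR mice at days 25 and 30 (n = 3 each). In the upper row the CR mice of day 25 are above the Con mice, apart from 1 overlap in Nsdhl; in the lower row the Con mice of day 30 spread up to 211 FPKM for Hmgcs1 and 250 for Msmo1, and the CR mice of day 30 reach no more than 100.4 FPKM in the 4 panels.

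The late steps, from squalene to cholesterol, are served by 10 of the genes. At day 25, 1 of the 10 rose and none fell, beside 14.9% of all genes called. At day 30, 3 fell and none rose, beside 24.7% of all genes called. Nsdhl, a dehydrogenase that takes part in removing methyl groups from the sterol ring, measured 22.7, 14.4 and 11.7 FPKM in Con and 32.3, 34.5 and 20.99 in CR mice at day 25. The values overlapped through Con 1 and CR 3, and the log2 fold change was 0.83 ± 0.28 (adjusted p = 0.0908). That call was lost without Con 2, Con 3, CR 1 or CR 2 of day 25, or without Con10, CR 2 or CR 3 of day 30, with an adjusted p of up to 0.265, and with no filter on low values (0.1741), robust empirical Bayes (0.1216), TPM scaling (0.107) or quantile normalization (0.102). At day 30 Nsdhl was 29.1, 22.2 and 43.8 in Con and 22.5, 34.0 and 35.7 in CR mice (-0.017 ± 0.28, adjusted p = 0.973).

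Sqle, squalene epoxidase, which adds oxygen to squalene before ring closure, was 26.4, 19.3 and 16.0 FPKM in Con and 26.7, 29.0 and 24.6 in CR mice at day 25 (0.39 ± 0.25, adjusted p = 0.365). At day 30 the Con mice had 32.4, 25.3 and 49.0 and the CR mice 13.7, 19.0 and 25.4. CR 3 was level with Con11, so the groups overlapped, and Sqle fell by 0.83 ± 0.25 on the log2 scale (adjusted p = 0.0399; 0.142 without Con12 and 0.165 without CR 1). Its difference between the 2 CR effects was -1.22 ± 0.35, with an unadjusted p of 0.0045 and an adjusted p of 1.00.

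Msmo1, methylsterol monooxygenase, the most abundant of the late genes in Con mice at day 30, had 168, 102 and 250 FPKM there against 64.5, 100.4 and 92.1 in CR mice. Only a narrow gap lay between Con11 and CR 2, and Msmo1 fell by 0.94 ± 0.34 (adjusted p = 0.0771). The adjusted p was 0.154 without Con10, 0.253 without Con12, 0.249 without CR 1 and 0.114 without CR 3, and 0.1506 with no filter on low values and 0.1096 with robust empirical Bayes. At day 25 Msmo1 was 136, 91.8 and 66.4 in Con and 118, 136 and 74.1 in CR mice (0.17 ± 0.34, adjusted p = 0.802).

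Hsd17b7, which reduces the keto group left after demethylation, was the late gene whose day 30 call held with any 1 mouse left out. It measured 25.7, 20.5 and 32.7 FPKM in Con and 10.3, 14.6 and 15.9 in CR mice at day 30, without overlap, and fell by 0.90 ± 0.20 (adjusted p = 0.0104). At day 25 it was 26.2, 19.9 and 16.9 in Con and 17.8, 17.9 and 14.3 in CR mice (-0.30 ± 0.20, adjusted p = 0.385).

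Cyp51, lanosterol demethylase, had 41.3, 26.8 and 18.1 FPKM in Con and 50.9, 49.0 and 37.7 in CR mice at day 25. Con 1 lay within the CR values, and the log2 difference of 0.72 ± 0.27 did not pass (adjusted p = 0.118). It passed without Con 1 (adjusted p = 0.0401), with median-ratio scaling (0.0838), with voom on the recovered reads (0.0954) and with the replicate block, in which same-numbered mice of day 25 are paired (0.0586). Without Con 3 the difference was 0.44 (adjusted p = 0.358), and over the other settings, TPM scaling, quantile normalization and no filter among them, the adjusted p reached 0.2096. Its day 30 levels were 50.3, 39.2 and 62.8 in Con and 29.3, 42.4 and 47.5 in CR mice (-0.35 ± 0.27, adjusted p = 0.396). The other late genes, Lss (lanosterol synthase), Tm7sf2 (a sterol reductase), Ebp (sterol isomerase), Sc5d (sterol desaturase) and Dhcr7 (the reductase that turns dehydrocholesterol into cholesterol), passed at neither day, although Ebp passed as higher at both days with median-ratio scaling. Their log2 fold changes ran from -0.081 to 0.41 at day 25 and from -0.23 to 0.26 at day 30. In Ebp the 3 CR mice of day 30 (109, 116 and 102 FPKM) were just above the 3 Con mice (93.0, 79.7 and 101.8).

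Among the 4 regulators, 1 fell at day 25 (9.34% of all genes did) and 3 fell at day 30 (16.4% of all genes). Insig2 was 93.9, 91.3 and 91.1 FPKM in the Con mice of day 25 and 36.2, 26.4 and 62.8 in the CR mice. Relative to the mean, its agreement among those Con mice was the closest of the members after Tm7sf2. Among those CR mice its spread was the widest of the members (coefficient of variation 45.1%). The day 30 levels were 73.8, 56.3 and 78.1 in Con mice and 30.1, 24.8 and 27.4 in CR mice. No CR mouse reached a Con mouse on either day, and Insig2 fell by 1.21 ± 0.24 (adjusted p = 0.00891) and 1.30 ± 0.24 (adjusted p = 0.00351) on the log2 scale. Across the fits with 1 mouse left out the changes ran from -1.54 to -0.93 at day 25 and from -1.44 to -1.21 at day 30. The CR effects of the days differed by -0.089 ± 0.33 (unadjusted p = 0.794). RefSeq lists 3 start windows for Insig2 and the table counts a single transcript, so transcripts from the start printed above and from the nearer ones cannot be told apart.

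Insig1, which encodes the other INSIG protein and is itself a target of SREBP2, passed at neither day. It was 70.1, 59.7 and 38.9 FPKM in Con and 53.9, 48.6 and 58.3 in CR mice at day 25 (-0.031 ± 0.23, adjusted p = 0.955). Day 30 gave 76.6, 56.1 and 108 in Con and 68.4, 60.8 and 70.1 in CR mice (-0.22 ± 0.23, adjusted p = 0.532). On both days the CR values lay inside the range of the Con values.

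Srebf2 was 14.8, 10.8 and 15.7 FPKM in Con and 8.8, 9.7 and 10.7 in CR mice at day 30, where it fell by 0.45 ± 0.13 (adjusted p = 0.0307; 0.103 without Con10, 0.114 without Con12 and 0.119 without CR 1). The highest CR mouse was just below the lowest Con mouse. At day 25 it was 13.8, 13.5 and 12.1 in Con and 13.0, 14.1 and 12.9 in CR mice (0.020 ± 0.13, adjusted p = 0.946). Scap, the escort, had 37.8, 31.8 and 35.0 FPKM in Con and 26.3, 26.2 and 27.4 in CR mice at day 30 and fell by 0.37 ± 0.12 (adjusted p = 0.0566). That call was lost without Con10 (0.163), Con12 (0.123), CR 1 (0.145) or CR 2 (0.116), although the groups did not overlap. At day 25 Scap was 31.6, 40.7 and 31.5 in Con and 28.8, 35.5 and 28.3 in CR mice (-0.16 ± 0.12, adjusted p = 0.471). A gene on the other strand, 5830462I19Rik, covers 13.2% of the exon bases of Scap.

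Of the 5 genes of receptor degradation and transport inside the cell, 1 was called at day 25, as lower, and 2 at day 30, 1 higher and 1 lower, where 14.9% and 24.7% of all genes were called. Mylip encodes IDOL, a ubiquitin ligase that marks lipoprotein receptors for degradation. It was 2.5, 1.9 and 2.4 FPKM in Con and 3.1, 3.2 and 4.0 in CR mice at day 30, without overlap, and rose by 0.44 ± 0.14 on the log2 scale (adjusted p = 0.0432; 0.1415 without Con11 and 0.134 without CR 3). At day 25 Mylip was 3.7, 3.9 and 3.9 in Con and 4.2, 2.7 and 4.4 in CR mice (-0.041 ± 0.14, adjusted p = 0.890), a difference whose sign turned with median-ratio scaling (0.0090), with quantile normalization (0.024) and without CR 2 (0.13).

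Stard4, a carrier that moves cholesterol between membranes, was 24.9, 26.9 and 35.4 FPKM in Con and 15.4, 24.4 and 22.4 in CR mice at day 30. The gap between Con10 and CR 2 was narrow, and Stard4 fell by 0.48 ± 0.18 (adjusted p = 0.0942). The call was lost in 8 of the 12 fits with 1 mouse left out, those without Con 2, Con 3, CR 1 or CR 2 of day 25 or Con11, Con12, CR 1 or CR 3 of day 30, with an adjusted p of up to 0.337 and a change of -0.29 without CR 1 of day 30. It was also lost with median-ratio scaling (0.142), quantile normalization (0.1224), no filter on low values (0.1597) and a fit of the 2 groups alone (0.1292). At day 25 it was 21.7, 19.1 and 16.3 in Con and 19.5, 17.9 and 14.4 in CR mice (-0.13 ± 0.18, adjusted p = 0.705).

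Lipa, the lysosomal acid lipase that frees cholesterol from ingested esters, was 68.4, 57.8 and 62.6 FPKM in Con and 55.5, 49.5 and 44.8 in CR mice at day 25. It fell by 0.33 ± 0.12 (adjusted p = 0.0958), and the call was lost in 9 of the 12 fits with 1 mouse left out, those without Con 1, Con 3, CR 2 or CR 3 of day 25 or Con10, Con12 or any CR mouse of day 30 (adjusted p up to 0.289). It was also lost with median-ratio scaling (0.1534), no filter (0.1143) and a fit of the 2 groups alone (0.1582). At day 30 Lipa was 67.5, 55.8 and 62.9 in Con and 56.9, 64.7 and 55.9 in CR mice (-0.066 ± 0.12, adjusted p = 0.732). Npc1 and Npc2, which hand cholesterol out of the lysosome, passed at neither day. Npc1 stayed between 35.0 and 47.3 FPKM in all 12 mice and Npc2 between 12.2 and 19.4.

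Of the 6 genes of esterification and efflux, 2 rose at day 25 (5.6% of all genes did), and 2 rose and 1 fell at day 30 (8.33% and 16.4% of all genes). Abcg5 and Abcg8 encode the partners of a transporter that secretes sterols into bile. Abcg5 was 38.3, 47.2 and 41.1 FPKM in Con and 60.1, 61.5 and 55.7 in CR mice at day 25. At day 30 it was 45.2, 43.4 and 43.4 in Con and 75.5, 72.1 and 63.5 in CR mice. No CR mouse was as low as a Con mouse on either day, and Abcg5 rose by 0.48 ± 0.10 (adjusted p = 0.0139) and 0.66 ± 0.10 (adjusted p = 0.00155) on the log2 scale.

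Abcg8 was 36.4, 41.7 and 38.8 FPKM in Con and 52.8, 54.3 and 51.7 in CR mice at day 25, and 43.7, 41.6 and 36.4 in Con and 58.5, 56.0 and 53.5 in CR mice at day 30. It rose by 0.43 ± 0.096 (adjusted p = 0.0153) and 0.46 ± 0.096 (adjusted p = 0.00738), again with no overlap. The 2 genes lie head to head on chromosome 17, and the transcript counted for Abcg8 (chr17:84676302-84700333, + strand) starts inside the span of Abcg5 (chr17:84658174-84683011, - strand), with 6710 bases of the spans in common. In the GENCODE annotation their exons share 82 bases, 3.02% of the exon bases of Abcg5 and 2.19% of those of Abcg8, where reads cannot be assigned without strand. The exons of the transcripts counted in the table were not compared. In the 12 mice the level of Abcg5 was 1.03 to 1.29 times that of Abcg8.

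Abca1, which loads cholesterol onto lipid-poor apolipoprotein A-I, was 19.1, 18.3 and 18.4 FPKM in Con and 17.3, 13.6 and 11.5 in CR mice at day 25. No CR mouse reached a Con mouse there, but the log2 difference of -0.39 ± 0.18 did not pass (adjusted p = 0.193). At day 30 it was 18.7, 24.9 and 20.8 in Con and 10.0, 16.1 and 15.4 in CR mice, and fell by 0.62 ± 0.18 (adjusted p = 0.0318; 0.112 without Con11 and 0.124 without CR 1). Abca1 is also active in macrophages, whose markers are given below. Soat2 (which esterifies cholesterol in hepatocytes), Lcat (which esterifies it in plasma and is the most abundant member, at 238 to 350.1 FPKM) and Scarb1 (the receptor for high-density lipoprotein) passed at neither day. Their log2 fold changes ran from -0.17 to 0.16 at day 25 and from 0.049 to 0.16 at day 30.

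**Figure D3:**
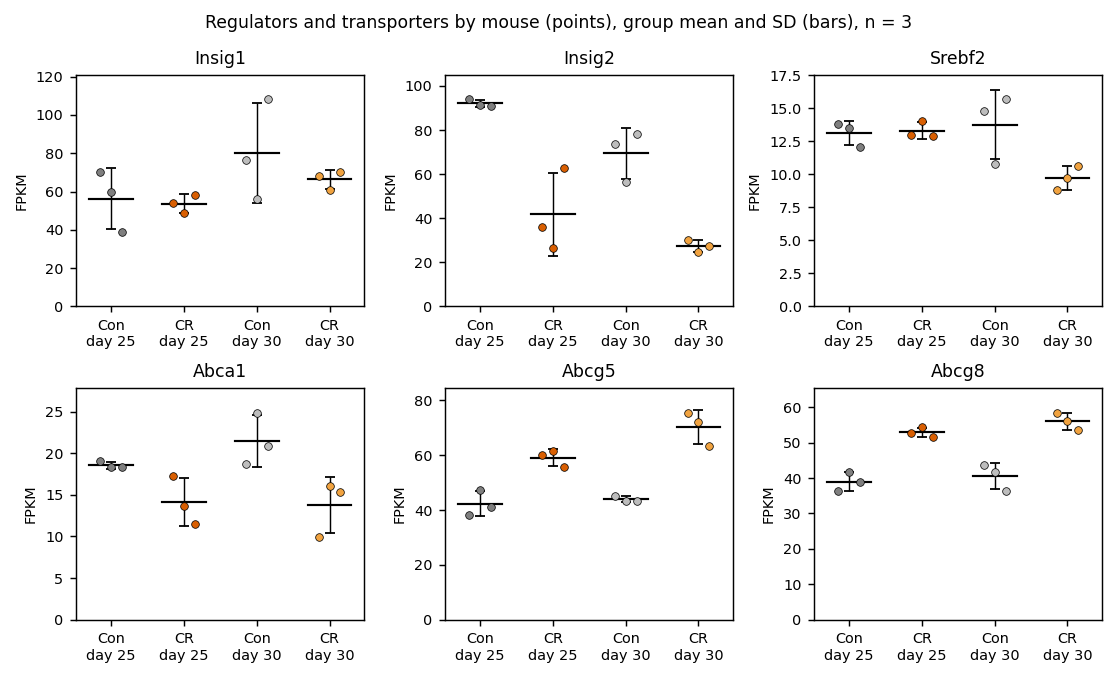
FPKM of 3 regulators (Insig1, Insig2, Srebf2) and 3 transporters (Abca1, Abcg5, Abcg8) in each mouse (points), with the group mean and SD (bars, n = 3). Insig2 sits between 24.8 and 62.8 FPKM in CR mice, Abcg5 between 55.7 and 75.5 and Abcg8 between 51.7 and 58.5, each apart from the Con mice of the same day.

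The design places the days before and after a change in liver protein synthesis, so the CR effect was also compared between days. No member's CR effect differed between day 30 and day 25 by limma (0 of 33, against 0.00944% of all genes tested, and 0 with voom). At an unadjusted p under 0.05 there were 6 members, and 366 of the 10593 genes. All 18 synthesis genes had a lower signed log2 fold change of CR against Con at day 30 than at day 25, as did 6106 of the 10593 genes, with differences from -1.22 for Sqle to -0.015 for Ebp. In size the change was larger at day 30 for some of them, such as Hmgcs1 (-0.25 at day 25 and -1.25 at day 30). The same 18 all had a higher mean level in Con mice at day 30 than at day 25, by 0.12 to 0.97 on the log2 scale, whereas in CR mice 8 of the 18 were higher at day 30. The CR effect of each day contains that day's Con mice, so these 2 statements rest on shared samples. Single mice weighed on both. Over the 33 members the median difference between the CR effects was -0.34. With 1 mouse left out it ran from -0.46 (without CR 3 of day 25) to -0.15 (without Con12). The median change from day 25 to day 30 in Con mice was 0.31, and ran from 0.14 (without Con12) to 0.47 (without Con 1 of day 25). No member differed between the days in Con mice (0 of 33, 0% of all genes and 0 with voom), with 17 members and 765 of the 10593 genes at an unadjusted p under 0.05. In CR mice no member differed either (0 of 33, against 0.321% of all genes, and 0 with voom), with 2 members and 917 of the 10593 genes at an unadjusted p under 0.05.

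Over both days together, with day in the model, 15 of the 33 genes differed between CR and Con mice (45.5%, against 39.6% of all genes tested). Over all 10593 genes tested 1506 were higher and 2692 lower, shares near those of the members, 6 higher (18.2%) and 9 lower (27.3%). The 6 higher members were Acat2, Pmvk, Fdps, Ebp, Abcg5 and Abcg8, and the 9 lower were Hmgcs1, Mvd, Hsd17b7, Srebf2, Scap, Insig2, Stard4, Lipa and Abca1. The largest fall was that of Insig2 (-1.26 ± 0.17, adjusted p = 2.26e-04) and the largest rise that of Fdps (0.83 ± 0.20, adjusted p = 0.01004). Median-ratio scaling turned this split to 10 higher and 5 lower, and quantile normalization to 8 higher and 6 lower. Of the 9 lower genes, Mvd, Srebf2, Stard4 and Lipa lost their call with median-ratio scaling.

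The synthesis genes spread more within groups than the other members. Their median coefficient of variation was 23.7% in the Con and 21.1% in the CR mice of day 25, and 31.1% in the Con and 11.1% in the CR mice of day 30. For the other 15 members it was between 8.83% and 12.6% in the 4 groups, and for all genes tested between 10.4% and 12.0%. Con12 had the highest value of the 12 mice in 13 of the 18 synthesis genes, and Con 3 of day 25 the lowest in 11. Both are Con mice, and they bound the range: averaged over the 18 genes, Con12 was 0.70 above and Con 3 was -0.62 from the mean of the 12 mice on the log2 scale, with every CR mouse between -0.27 and 0.25.

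**Figure D4:**
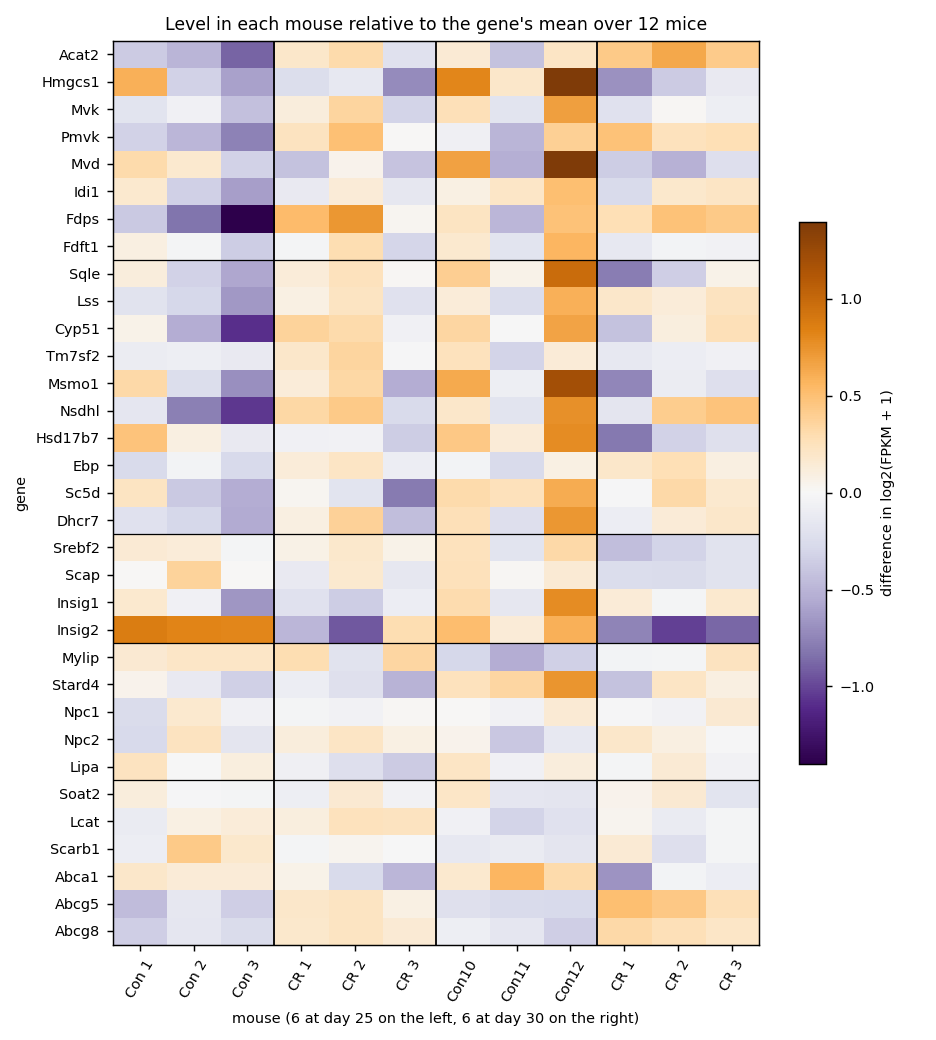
Difference of each mouse's log2(FPKM + 1) from the gene's mean over the 12 mice, for the 33 genes (rows, by role) and the mice of day 25 (left) and day 30 (right); orange is above the mean and purple below. The column of Con12 is orange through most synthesis genes and that of Con 3 purple, the row of Insig2 is orange in Con and mostly purple in CR mice, and the rows of Abcg5 and Abcg8 show the opposite.

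The summed FPKM of the 18 synthesis genes was 490.1 to 791 in the Con and 592 to 878 in the CR mice of day 25, and 702 to 1277 in the Con and 674 to 811 in the CR mice of day 30, with overlap on both days. Ratios between members within a mouse are given for 3 pairs. They were chosen after their values were seen and carry no test. Fdps measured 0.364 to 0.540 times Hmgcs1 in the 6 Con mice and 1.14 to 1.52 times in the 6 CR mice. Pmvk measured 2.07 to 5.76 times Mvd in Con mice and 7.19 to 9.95 times in CR mice. Insig1 measured 0.427 to 0.746 times Insig2 in the Con and 0.928 to 1.84 times in the CR mice of day 25, and 0.996 to 1.39 and 2.27 to 2.56 times at day 30. Con12 and Con 3, the mice at the ends of the synthesis range, had Fdps to Hmgcs1 ratios of 0.364 and 0.407, next to the other Con mice. Their Pmvk to Mvd ratios were 2.07, the lowest of all mice, and 3.96. Their Insig1 to Insig2 ratios were 1.39, the highest of the Con mice, and 0.427, the lowest.

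**Figure D5:**
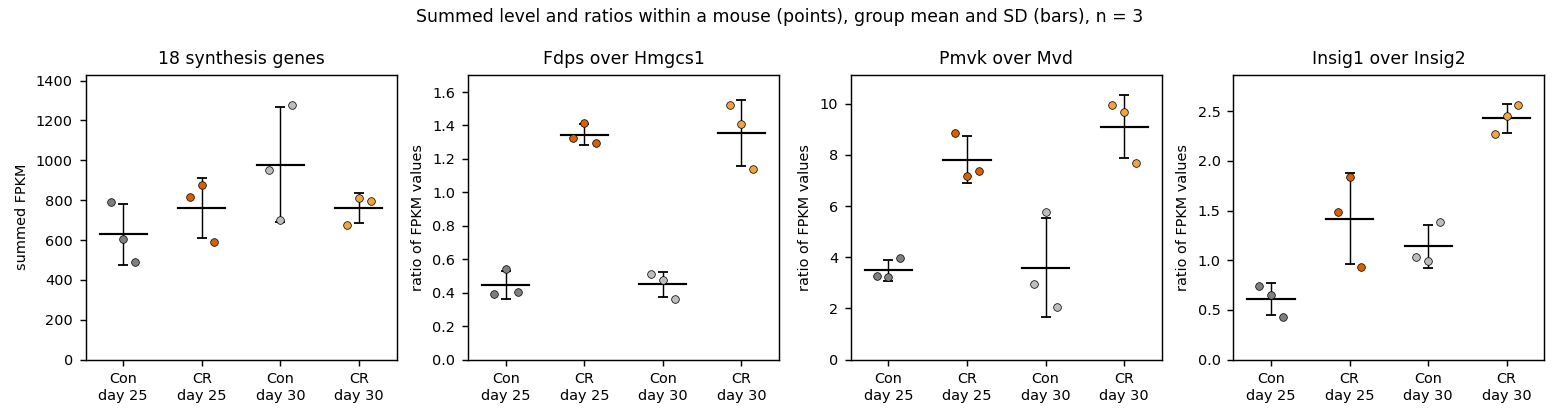
Summed FPKM of the 18 synthesis genes, and the ratio of FPKM values of 3 pairs of genes, in each mouse (points) with the group mean and SD (bars, n = 3). The sums overlap between Con and CR mice on both days, and the ratios of Fdps to Hmgcs1 (0.364 to 0.540 against 1.14 to 1.52) do not.

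Other genes of the same pathway, 46 that control sterol sensing, carry sterols or use its intermediates, were counted beside the members. All 46 were in the table and 42 passed the filter. At day 25, 2 were higher and 5 lower in CR mice, and at day 30, 3 were higher and 8 lower, near the 14.9% and 24.7% of all genes tested that passed, with median log2 fold changes of -0.021 and -0.055. The largest change was in Hsd3b7, an enzyme of bile acid synthesis, which fell by 1.05 ± 0.16 (adjusted p = 0.00310) and 1.62 ± 0.16 (adjusted p = 9.5e-05), from means of 173 and 190 FPKM in Con to 83.4 and 61.7 in CR mice. Gramd1c, which carries cholesterol from the cell surface inwards, fell by 0.62 (adjusted p = 0.0303) and 0.53 (adjusted p = 0.0381).

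Stard5, a sterol-binding protein, rose by 0.31 at day 25 and 0.43 at day 30. Vldlr, a lipoprotein receptor with little RNA in liver, had Con means of 0.470 and 0.381 FPKM and CR means of 1.05 and 1.29. It passed the filter on low values only through the CR mice, so its differences of 0.48 and 0.72 are a description. It is counted among the higher genes of both days. Pltp, phospholipid transfer protein of plasma, fell by 0.55 at day 25 and had a difference of -0.24 at day 30 (adjusted p = 0.372). At day 30 alone Osbpl1a passed as higher (0.31), and Erlin2 (-0.37) and Syvn1 (-0.31), which act in degradation at the endoplasmic reticulum, Osbp (-0.24), an oxysterol-binding protein, and Pdss2 (-0.51), which makes the ubiquinone side chain, passed as lower. Whether these differ from their day 25 values was not tested for this list.

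Libraries held 15748719 to 23345539 reads by the steps of low FPKM values, with 78.1% to 84.3% on exons, and a member had 9 to 16689 reads in a library. The hepatocyte markers summed to 41090 to 67720 FPKM in the 12 libraries and were by far the highest list, with lymphocyte markers at 0.67 to 2.52 and neutrophil markers at 0 to 1.55 (Ly6g at 0 in all libraries). Some of these sums, and those of other lists, did not overlap between the Con and CR mice of a day. Among all genes tested the values of 28.2% at day 25 and 36.4% at day 30 did not overlap either. The 8 macrophage markers summed to 40.5 to 69.8 FPKM in the Con and 26.3 to 34.6 in the CR mice of day 25 (4 of 8 called) and overlapped at day 30 (37.0 to 54.1 and 35.9 to 48.8; 1 of 8 called). The 7 hepatocyte markers measured summed to 41090 to 49680 in the Con and 57190 to 67720 in the CR mice of day 30 (2 of 7 called). At day 30 the endothelial markers summed to 44.7 to 48.8 in Con and 60.7 to 71.1 in CR mice (5 of 8 called), and the stellate cell and fibroblast markers to 48.1 to 58.4 and 66.8 to 85.5 (4 of 8 called). At day 25 the stellate cell and fibroblast markers summed to 52.5 to 61.9 in Con and 63.3 to 69.1 in CR mice (1 of 8 called), the lymphocyte markers to 1.02 to 1.90 and 0.671 to 0.896, and the neutrophil markers to 0.492 to 1.06 and 0 to 0.169. No lymphocyte or neutrophil marker passed the filter on low values. The endothelial sums of day 25 (45.0 to 66.2 in Con and 59.0 to 72.3 in CR mice) and the cholangiocyte sums of both days overlapped. These counts of called markers stand beside 14.9% of all genes at day 25 and 24.7% at day 30. The hepatocyte count of day 30 and the stellate cell and fibroblast count of day 25 are near those shares. The erythroid markers ranged from 193 to 1107. The part of these shifts in the differences above, that of Abca1 among them, was not tested.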

How the data were processed

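Liver RNA was sequenced as paired-end reads on a single lane. According to the methods and processing notes the authors used CASAVA 1.8.2, FastQC, BWA and mm10, and DESeq2 for their own tests. The deposited values are FPKM, which per the file headers were counted on exons by HOMER, which kept 1 transcript for each gene. The strand setting is not given in the sources used here.

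Steps of low FPKM values gave whole reads for 100% of the values tested (within 0.01 reads beyond the rounding of the decimals) and each library's depth. Values were analysed as log2(FPKM + 1), so folds of low genes are understated, for the 10593 genes that reached an FPKM of 1 in 3 or more libraries. limma 3.58.1 in R 4.3.3, with a trend in the prior variance and a single model of the 4 groups, gave 2-sided p-values adjusted by Benjamini-Hochberg over all genes tested. Each library is taken as 1 mouse, and p-values measure the spread between these libraries. As an alternative, the replicate block paired same-numbered Con and CR mice of day 25 by their titles. Deviations from the group mean had correlations of 0.106 to 0.368 in same-numbered pairs and -0.287 to 0.0134 in other pairs. The deviations of 3 mice from their own mean are tied to each other, so these correlations cannot show that the mice were paired. Members and lists were chosen with earlier results of these data known. Members called at either day, or with a log2 change of 0.5 or more in size, are given by mouse; of the 46 other genes, those called are named, except some that are counted but not reported here by name. The fit was also run on simulated data with independent noise for each gene. That noise held no shift shared by the genes of a mouse, and the outcome is not given here. Motifs and starts are from RefSeq, exon overlaps from GENCODE M21. Tables and plots used matplotlib 3.10.9, NumPy 2.4.6 and pandas 2.3.3 under Python 3.11.15. Alternatives were other pseudocounts (0.1, 0.5), filters, scalings, variance models, thresholds, voom on recovered reads, the replicate block and each mouse left out.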

Additional observations from a re-analysis of the deposited data

How the results depend on the processing

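The number of members called stayed within 1.5 times its value under the other pseudocounts, filters, scalings, variance models, voom and an adjusted p under 0.05. A 2-fold minimum left 2 members at day 25, 2 at day 30 and 1 over both days. When 1 mouse was left out the count ran from 4 to 8 at day 25, from 5 to 13 at day 30 and from 12 to 15 over both days, and stayed at 0 for the differences between days. With the replicate block 9 members were called at day 25, Cyp51 joining the 8, and the block changed no other call. In CR mice the same-numbered mice of the 2 days had correlations of -0.382 to 0.299, and the replicate block there left 0 members. No paired analysis was possible at day 30 because the Con columns carry no replicate number of the titles. Among uncalled differences the sign turned for Mylip at day 25 with median-ratio scaling (0.0090) and quantile normalization (0.024), for Nsdhl at day 30 (0.063 and 0.017) and for Lipa at day 30 with median-ratio scaling (0.015). With a mouse left out it turned for Hmgcs1 (-0.50 to 0.11), Msmo1 (-0.074 to 0.44), Srebf2 (-0.036 to 0.054) and Mylip (-0.14 to 0.13) at day 25 and for Nsdhl at day 30 (-0.24 to 0.24). The cause was not tested. Over all genes tested the median log2 fold change was -0.060 and -0.11 with TPM scaling and 0.013 and -0.0021 with median-ratio scaling. Groups of 3 mice limit the precision of every gene, and 9 to 102 reads per library limit that of Idi1.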

Other observations

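The RNA ratio of 2 genes of cholesterol export differed between Con and CR mice, and export itself was not measured. Abcg5, which serves bile, measured 2.01 to 2.58 times Abca1, which serves high-density lipoprotein, in the Con mice of day 25 and 3.48 to 4.84 times in the CR mice. At day 30 the ratio was 1.74 to 2.41 in Con and 4.12 to 7.57 in CR mice. The summed level of Insig1 and Insig2 was 130 to 164 FPKM in the Con and 74.9 to 121 in the CR mice of day 25, and 112 to 186 in the Con and 85.6 to 98.5 in the CR mice of day 30. These ratios and sums were chosen after their values were seen and carry no test.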
